A study of Rattus norvegicus with 4 samples.

Results

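The genes described here encode 7 receptors that draw leukocytes towards chemical signals: 3 formyl peptide receptors (Fpr1, Fpr2l and Fpr3), the complement receptors C5ar1 and C3ar1, the leukotriene B4 receptor Ltb4r and the platelet-activating factor receptor Ptafr. They were chosen by gene name on the array with the liposome against saline difference known, and they are 7 of 12858 genes tested. Each has 1 probe of 60 bases, printed once on every array, and all 7 were well above background on all 4 arrays. Fpr2l is the array's older name, and the RefSeq table pairs it with Fpr2.

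Gene expression was measured on 4 one-colour Agilent arrays of rat spleen cells, 2 from liposome-injected and 2 from saline-injected rats. All were male rats of the WKAH strain aged 8 to 12 weeks, and spleens were taken 24 h after the injection of liposomes, which are small lipid vesicles, or of saline. Magnetic beads removed cells with MHC class II on their surface and then captured cells that carry CD11b/c, a pair of integrin chains of myeloid cells, so every array holds an enriched MHC class II-/CD11b/c+ fraction and not a pure cell type. Liposome composition and dose are not given in the sources used here. Nor do the labels say whether the arrays of a group came from separate rats or what exp1 and exp2, given once per group in the titles and called numbers 1 and 2 here, mark, and the p-values below therefore cover the spread among these arrays alone, which may be technical.

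Chemoattractant receptors are G protein-coupled receptors that cross the cell membrane many times and act mainly through inhibitory (Gi) proteins. Formyl peptide receptors bind peptides that start with N-formylmethionine, which bacteria and mitochondria make, and also other peptides and lipid mediators. C5a and C3a are split from complement proteins, and leukotriene B4 and platelet-activating factor are lipids released by activated leukocytes. On neutrophils, monocytes and macrophages these ligands direct migration and can raise oxidant production and degranulation.

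Probes of Fpr3 and Fpr2l are shown because the formyl peptide receptors are paralogs, and a probe of 1 gene may also capture the RNA of another. The Fpr3 probe is printed 5′ to 3′, with capitals marking the longest run shared with the probe of any other gene, 15 bases. On the rn4 build the files place it at chr1:56731455-56731514 on the plus strand.
Fpr3: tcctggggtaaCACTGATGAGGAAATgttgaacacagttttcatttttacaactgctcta

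On the same chromosome lies the probe of an Ensembl transcript, ENSRNOT00000041605, at chr1:56623812-56623871 (rn4, plus strand), to which the files give no gene symbol. It is a near-copy of the Fpr2l probe, which the files leave unmapped. The pair has 54 of 60 bases in common, and capitals mark the 6 that differ.
Fpr2l: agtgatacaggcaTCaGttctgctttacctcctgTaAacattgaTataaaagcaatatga
ENSRNOT00000041605: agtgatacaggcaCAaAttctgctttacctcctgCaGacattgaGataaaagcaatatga
The next most similar probe has 34 bases in common with that of Fpr2l. Each of these probes may read RNA of both sequences, and Fpr2l values are uncertain for that reason. The longest run shared by any 2 of the 3 formyl peptide receptor probes was 5 bases, so they carry no long stretch in common with each other. Probes were compared only with other probes, not with whole transcripts, so whether any of them captures a paralog's RNA was not tested.

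Upstream of their start sites, Fpr2 (the RefSeq name of Fpr2l) and Fpr3 share a stretch. It is shown because both genes were lower in the liposome fraction, but whether it bears on that difference was not tested. The stretch is taken from RefSeq, build GRCr8, and has 41 of 46 bases in common, with the differences in capitals. It lies at chr1:67449587-67449632 on the plus strand, 50 to 5 bases before the start of Fpr2, and at chr1:67557241-67557286 on the plus strand, 223 to 178 bases before the start of Fpr3.
Fpr2l: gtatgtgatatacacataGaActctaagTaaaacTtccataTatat
Fpr3: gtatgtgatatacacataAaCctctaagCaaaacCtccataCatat
The printed stretch is the first ungapped part of a longer local alignment of Fpr2l with Fpr3, of 82 columns with 70 identical and 2 gaps. The rest of that alignment runs past the start of Fpr2. Among 15 pairs of the 6 receptor promoters available, with none matched to C5ar1, the longer alignment scored best. Its score was 56, against 14 for the next, Ltb4r with Ptafr, and 10 for Fpr1 with either Fpr2l or Fpr3. A few short motifs were searched on both strands of the promoter windows. GAGGAA, the core bound by the myeloid factor PU.1, was found in the windows of Fpr1, Fpr2l, Fpr3, Ltb4r and Ptafr, and in 27.6% of 33469 rat promoters. TTNNGCAA, a form of the CCAAT/enhancer binding protein site, was found in Fpr2l and Ptafr and in 10.6% of promoters. The octamer ATTTGCAT was found in Fpr2l and Fpr3 and in 1.80% of promoters, TGANTCA (AP-1) in C3ar1 and in 7.30%, and GAAANNGAA, an interferon-stimulated form, in none of the 6 and in 9.70%.

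All 3 formyl peptide receptor genes were lower in the liposome fraction on both arrays, by 5.88-fold to 11.5-fold. Levels are relative intensities, that is, processed intensity as a multiple of the 75th percentile of the same array, and they are not comparable between probes. Differences are log2 liposome minus saline with the SE of the limma fit to all genes. Because the genes were chosen with this contrast known, these differences are given with no test. In bulk samples, fewer cells of a type and less RNA per cell cannot be told apart.

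Fpr1, the receptor with high affinity for bacterial formyl peptides, had relative intensities of 0.165 and 0.178 on the liposome arrays, against 1.05 and 1.02 on the saline arrays. Its means were 0.171 ± 0.00911 in the liposome group and 1.04 ± 0.0205 in the saline group (SD, n = 2 each). Its log2 difference was -2.60 ± 0.10, which is 6.05-fold lower. Replicates of Fpr1 lay close together in both groups, and the gap between the groups, 2.52 on the log2 scale, was nearly the whole difference.

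Fpr2l, whose receptor also binds annexin A1 peptides and acute-phase proteins, had relative intensities of 0.192 and 0.215 on the liposome arrays, against 0.960 and 1.49 on the saline arrays. Its log2 difference was -2.56 ± 0.24, which is 5.88-fold lower. The liposome arrays lay 0.16 apart on the log2 scale and the saline arrays 0.63, and the groups did not overlap.

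Fpr3 had relative intensities of 0.116 and 0.101 on the liposome arrays, against 1.08 and 1.44 on the saline arrays. Its human namesake, FPR3, responds poorly to formyl peptides. The log2 difference of Fpr3 was -3.52 ± 0.18, which is 11.5-fold lower. It had the largest difference of the 7 genes and stood 7th among 12858 genes ordered by fall, with Fpr1 24th and Fpr2l 25th. Its liposome spots were the dimmest of these 3 genes: 4.91 and 2.44 times the lowest signal called above background on the same array, against 28.5 and 44.3 times on the saline arrays.

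The transcript with the near-identical probe, ENSRNOT00000041605, was lower too, although it may not come from a gene separate from Fpr2l. Its relative intensities were 1.09 and 1.08 on the liposome arrays, against 6.98 and 7.05 on the saline arrays, and its log2 difference was -2.70 ± 0.09. Replicates of either group were almost level, unlike those of Fpr2l in saline.

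C5ar1, the main receptor for C5a, had relative intensities of 9.96 and 9.78 on the liposome arrays, against 13.8 and 11.5 on the saline arrays. The groups did not overlap, but the log2 difference was only -0.35 ± 0.13, and the gap between the nearest arrays was 0.21. The saline arrays lay 0.26 apart on the log2 scale, so the gap was smaller than the spread within the saline group.

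C3ar1, the receptor for C3a, had relative intensities of 0.436 and 0.458 on the liposome arrays, against 0.600 and 0.407 on the saline arrays. Both liposome arrays lay between the saline arrays. The log2 difference was -0.14 ± 0.21, and it was 0.14 without saline array 1, so its sign rested on that array.

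Ltb4r, the high-affinity leukotriene B4 receptor, had relative intensities of 0.0722 and 0.0975 on the liposome arrays, against 0.120 and 0.106 on the saline arrays. The log2 difference was -0.42 ± 0.18, and the gap of 0.12 between the nearest arrays was smaller than the 0.43 between the liposome arrays. It was the dimmest probe, at 2.36 to 3.27 times the lowest signal above background. Leaving out liposome array 1 gave -0.21, and leaving out liposome array 2 gave -0.64, so the size depended on these arrays.

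Ptafr, the receptor for platelet-activating factor, had relative intensities of 15.1 and 15.6 on the liposome arrays, against 16.2 and 13.3 on the saline arrays. Both liposome arrays lay between the saline arrays. The log2 difference was 0.07 ± 0.14, and it was -0.07 without saline array 2.

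**Figure D1:**
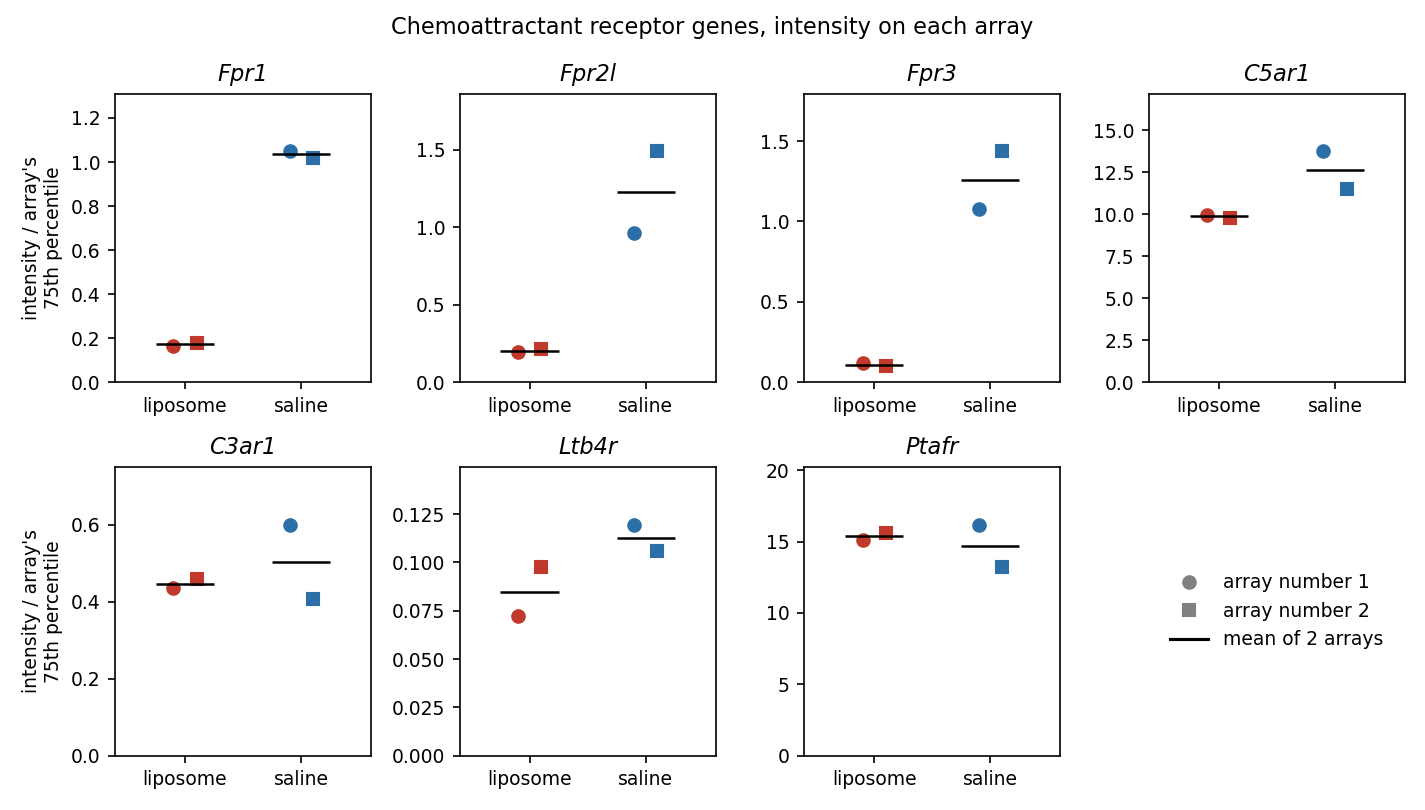
Relative intensity (processed intensity divided by the array's 75th percentile, linear axis from 0, own scale in each panel) of the 7 receptor genes on the 2 liposome and 2 saline arrays, with points for arrays and bars for means of 2. The Fpr1, Fpr2l and Fpr3 liposome points lie far below the saline points, the C5ar1 and Ltb4r groups lie close without overlapping, and the C3ar1 and Ptafr groups overlap.

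In the limma fit to all genes, 3 of the 7 receptor genes were lower at an adjusted p under 0.05, as were 4.06% of the genes tested. With either direction counted the background was 8.89%. The same 3 genes were lower by 2-fold or more with no overlap between groups, as were 1.16% of genes, and had a log2 difference of -2 or below, as did 0.467%. Groups did not overlap for 5 of the 7 genes, as for 65.5% of all genes, and in each of the 5 the liposome arrays were the lower ones, as for 35.1% of all genes. Since the contrast itself chose the genes, nothing is read from these counts. Without liposome array 1, or without liposome array 2, 0 of the 7 passed the adjusted threshold, as did 0 of all genes.

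A shift that both groups share between arrays numbered 2 and 1, which did not choose the genes, was tested with the group kept in the model. None of the 7 receptor genes passed in limma (adjusted p from 0.575 to 0.938), and none did at an unadjusted p under 0.05. Over all 12858 genes 0% passed, with 1175 at an unadjusted p under 0.05, and this fit had 1 residual degree of freedom. Fpr2l had the largest such difference, 0.40 ± 0.16 on the log2 scale (unadjusted p = 0.0662 in the limma fit). For Fpr1 it was 0.03 ± 0.11 and for Fpr3 0.11 ± 0.19. This term averages over both groups, and opposite moves cancel in it: Fpr3 differed by -0.20 between the liposome arrays and by 0.42 between the saline arrays.

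**Figure D2:**
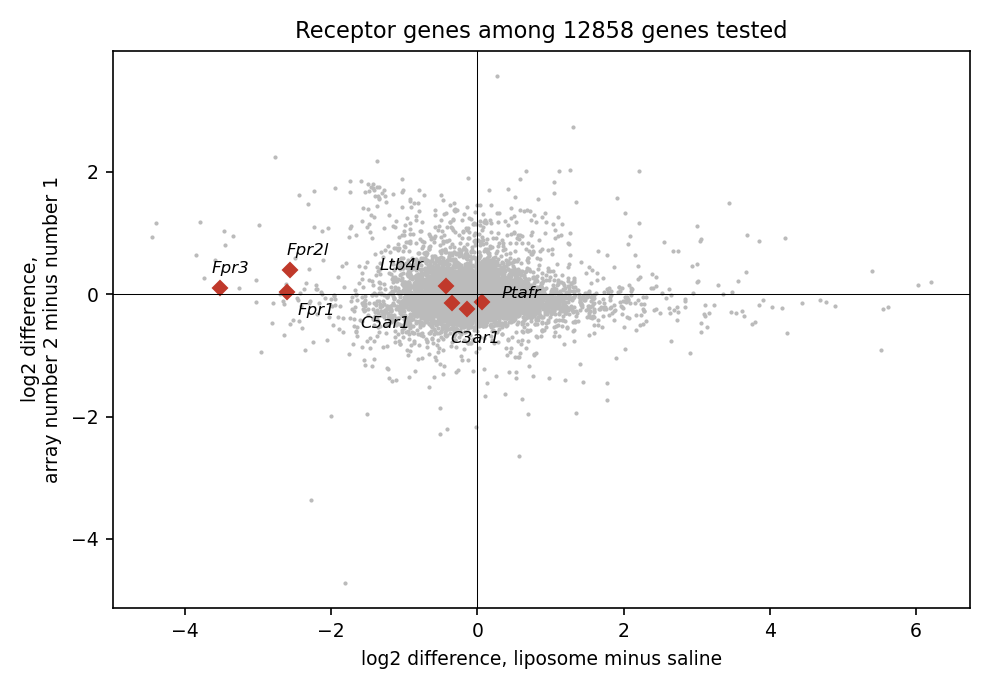
Log2 difference between liposome and saline (x) against the log2 difference between arrays numbered 2 and 1 (y) for 12858 genes in grey and the 7 receptor genes as red diamonds. Fpr1, Fpr2l and Fpr3 lie at the left, at -2.60, -2.56 and -3.52 on x and within 0.40 of 0 on y, while the other 4 receptor genes lie among the bulk of genes.

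Taken by number, Fpr1 was lower by a log2 difference of -2.67 between the arrays numbered 1 and -2.52 between those numbered 2. For Fpr2l the values were -2.32 and -2.79, and for Fpr3 -3.21 and -3.83. C5ar1 had -0.47 and -0.23, and Ltb4r -0.73 and -0.12, the same sign on both. C3ar1 had -0.46 and 0.17 and Ptafr -0.10 and 0.24, so that their signs differed between the numbers.

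Among annotated relatives, C5ar2, a second C5a receptor, had relative intensities of 0.0991 and 0.0758 on the liposome arrays, against 0.115 and 0.106 on the saline arrays, and did not pass (log2 difference -0.35 ± 0.17, adjusted p = 0.233 in limma). Its difference was close in size to that of C5ar1. Ltb4r2, the low-affinity leukotriene B4 receptor, and the formyl peptide receptor relative Fpr-rs6 were not well above background on any array. Fpr-rs3, which the RefSeq table calls Fpr2l1, was well above background only on saline array 1. No fold is given for these 3 genes.

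Within 1 Mb on either side of the Fpr1 and Fpr3 probes on rn4 chromosome 1, 6 other gene entries were tested. Of these, 3 fell and 0 rose in limma, against 4.06% and 4.83% of all genes. Those that fell include ENSRNOT00000041605, whose probe may read Fpr2l RNA. It may not be a gene separate from Fpr2l, so nothing is read from this count. The window was set with these data known. Besides ENSRNOT00000041605, the transcript TC589845 fell (log2 difference -1.05 ± 0.17, adjusted p = 0.0423 in limma), as did Vom1r6, a vomeronasal receptor gene (-0.84 ± 0.15, adjusted p = 0.0492), which was well above background on 1 of the 2 liposome arrays. Has1, a hyaluronan synthase gene, did not pass (-0.35 ± 0.16), nor did Riok2 (0.03 ± 0.12) or Lnpep (-0.14 ± 0.19). Differences in this stretch ran from -2.70 to 0.03. Without liposome array 1, or without liposome array 2, none of these calls held, and neither did any other call among the genes tested.

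Genes with the most similar profiles were found by the root mean square difference of log2 values centred on each gene's mean over 4 arrays. The nearest to Fpr1 were ENSRNOT00000041605 (0.0690) and Sema3g (0.120). The liposome spots of Sema3g were not well above background, so its level there was at least 1.55-fold lower and its likeness to Fpr1 was not measured. Fcgr3a, a low-affinity IgG Fc receptor gene, was nearest to Fpr2l (0.230), followed by ENSRNOT00000041605 (0.240). Nearest to Fpr3 were Defb14, a defensin gene (0.160), and Cdh1, which encodes E-cadherin (0.200). With relative intensities of 0.543 and 0.593 on the liposome arrays, against 6.57 and 8.63 on the saline arrays, Defb14 had a log2 difference of -3.73 ± 0.17. Fcgr3a had 1.29 and 1.57 on the liposome arrays, against 6.99 and 7.40 on the saline arrays.

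The other 4 receptors had closer neighbours, since many genes have small differences. They were ENSRNOT00000000279 (0.00590) and LOC681224 (0.0130) for C5ar1, Slc2a6 (0.00710) and ENSRNOT00000043675 (0.0170) for C3ar1, ENSRNOT00000046737 (0.00890) and Ccn2 (0.0290) for Ltb4r, and LOC100360801 (0.00410) and Snx19 (0.0130) for Ptafr. Over 4 arrays such likeness describes the profiles only.

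Other genes of the receptors' pathways were read from 5 lists. Of 74 list genes tested, 2 rose and 6 fell in limma, while 4.83% of all genes rose and 4.06% fell. The median log2 difference of the 74 was -0.11, against -0.035 over all genes. No call of these list genes held without liposome array 1 or without liposome array 2, and neither did any other call among the genes tested. Among ligands and the enzymes that make or break them, 0 of 16 rose and 3 fell (median -0.23). C3, the source of C3a, had relative intensities of 5.02 and 4.80 on the liposome arrays, against 14.4 and 10.3 on the saline arrays, and fell (log2 difference -1.31 ± 0.19, adjusted p = 0.0357 in limma). C5, the source of C5a, fell (-1.05 ± 0.11, adjusted p = 0.0203), with 1 of 2 liposome arrays well above background, and so did Cfd, complement factor D (-0.95 ± 0.13, adjusted p = 0.0334). Bright genes of this list that did not pass were Anxa1, whose protein yields formyl peptide receptor ligands (-0.32 ± 0.10, adjusted p = 0.108), and Pla2g7, an enzyme that degrades platelet-activating factor (0.21 ± 0.11, adjusted p = 0.267).

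Among other chemoattractant receptors 2 of 9 tested rose and 1 fell (median 0.48). Cmklr1, the chemerin receptor, had relative intensities of 0.430 and 0.411 on the liposome arrays, against 0.183 and 0.115 on the saline arrays, and rose (log2 difference 1.54 ± 0.25, adjusted p = 0.0423 in limma). P2ry13, an ADP receptor, rose (0.83 ± 0.14, adjusted p = 0.0436), and P2ry6, a UDP receptor, fell (-1.17 ± 0.18, adjusted p = 0.0377). S1pr1, a sphingosine 1-phosphate receptor (-0.59 ± 0.19, adjusted p = 0.120), and P2ry2, an ATP and UTP receptor (0.95 ± 0.22, adjusted p = 0.0729), did not pass. Receptors for chemotactic ligands thus included genes in both directions, beside formyl peptide receptors that were all lower. These calls, like those of all other genes tested, did not hold without liposome array 1 or without liposome array 2.

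Downstream, 0 of 25 signal transducer genes passed in either direction (median -0.06), among them Gnai2, a Gi alpha subunit (-0.14 ± 0.10), and Rac2, a small GTPase of leukocyte movement (-0.10 ± 0.11). Of 15 regulators, 0 rose and 2 fell (median -0.30). They were Grk6, a kinase that desensitises activated receptors (-0.68 ± 0.10, adjusted p = 0.0350 in limma), and Rgs14, which speeds the switching off of Gi proteins (-0.67 ± 0.11, adjusted p = 0.0428). Bright regulators that did not pass were Rgs1 (0.67 ± 0.29) and Rgs2 (-0.24 ± 0.12). Of 9 effector genes of the oxidase, granules and adhesion, 0 passed (median -0.06), with the oxidase subunits Cyba at 0.52 ± 0.11 (adjusted p = 0.0640) and Ncf1 at 0.08 ± 0.13. A p that misses the threshold does not show that the levels were equal.

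**Figure D3:**
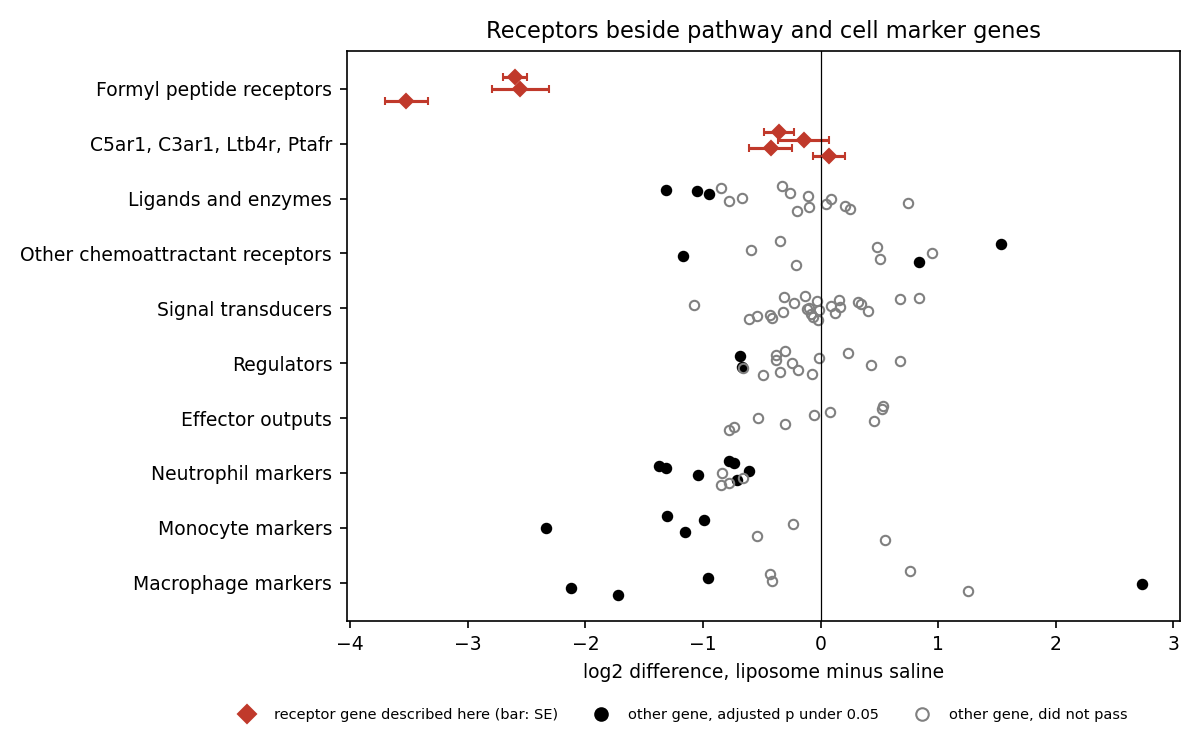
Log2 difference between liposome and saline for the 7 receptor genes (red diamonds, bars are SE) and for genes of the pathway and cell marker lists (filled circles passed an adjusted p of 0.05, open circles did not). The 3 formyl peptide receptors, at -3.52 to -2.56, lie at the left end, with the lowest pathway gene at -1.31 and the lowest marker genes at -1.37 (neutrophil), -2.13 (macrophage) and -2.34 (monocyte).

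Many markers of cells that the fraction could hold were lower, like the formyl peptide receptors. The neutrophil list had 11 of 13 genes tested, all lower and 7 past the threshold in limma, at log2 differences from -1.37 to -0.61, which are 2.59-fold to 1.52-fold lower, and its summed relative intensity was 144.8 and 157.0 on the liposome arrays, against 243.5 and 269.5 on the saline arrays. Mpo and Ltf of that list were well above background on 1 array each. The monocyte list had 7 of 7 genes tested, of which 4 fell and 0 rose (median -0.99), and its sums were 78.1 and 91.7 on the liposome arrays, against 145.4 and 132.7 on the saline arrays. Its lowest member was Fcgr3a at -2.34, close to Fpr2l at -2.56 ± 0.24. The other monocyte genes lay farther off, from -1.30 (Ccr2) to 0.55 (Cd14). The macrophage list had 8 of 10 genes tested, 1 that rose and 3 that fell (median -0.42), with sums of 75.4 and 70.9 on the liposome arrays, against 68.7 and 58.6 on the saline arrays, with Cd5l lowest at -2.13, and Marco and Vsig4 were not well above background on any array. None of these list calls held without liposome array 1 or without liposome array 2. Neither did any other call among the genes tested, so this does not set the markers apart. How far the number of neutrophils, monocytes or macrophages accounts for the receptor values was not tested.

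Genes of other lists fell too. The erythroid list had 5 of 6 genes that fell and the dendritic list 3 of 5. For eosinophils and basophils it was 1 of 8, and their lowest value was -2.19. In the B, T and natural killer lists 0 genes passed the threshold. Lower without passing were 6 of 6 B cell genes (median -0.71), 7 of 7 natural killer genes (median -1.34) and 4 of 6 T cell genes (median -0.14). The neutrophil median was -0.78, so lower values were not particular to myeloid lists. Natural killer sums were 8.74 and 25.9 on the liposome arrays, against 21.1 and 64.8 on the saline arrays. Itgam encodes CD11b, a chain of the CD11b/c pair by which the beads captured cells, and the CD11c chain is not given here. Itgam had relative intensities of 5.03 and 4.76 on the liposome arrays, against 4.33 and 2.94 on the saline arrays. It did not pass (0.46 ± 0.21, adjusted p = 0.225 in limma). The share of these cells in each fraction was not measured, and the part that cell mixture plays in the receptor values was not tested.

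Across processing settings the formyl peptide receptors stayed the 3 lowest of the 7 genes. Over 11 alternatives Fpr1 lay between -2.65 and -2.13, Fpr2l between -2.87 and -2.24 and Fpr3 between -3.73 and -2.91 on the log2 scale. C5ar1 lay between -0.48 and -0.22, and Ltb4r between -0.64 and -0.21. Only C3ar1 (-0.43 to 0.14) and Ptafr (-0.07 to 0.21) took the opposite sign, each under 1 alternative.

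**Figure D4:**
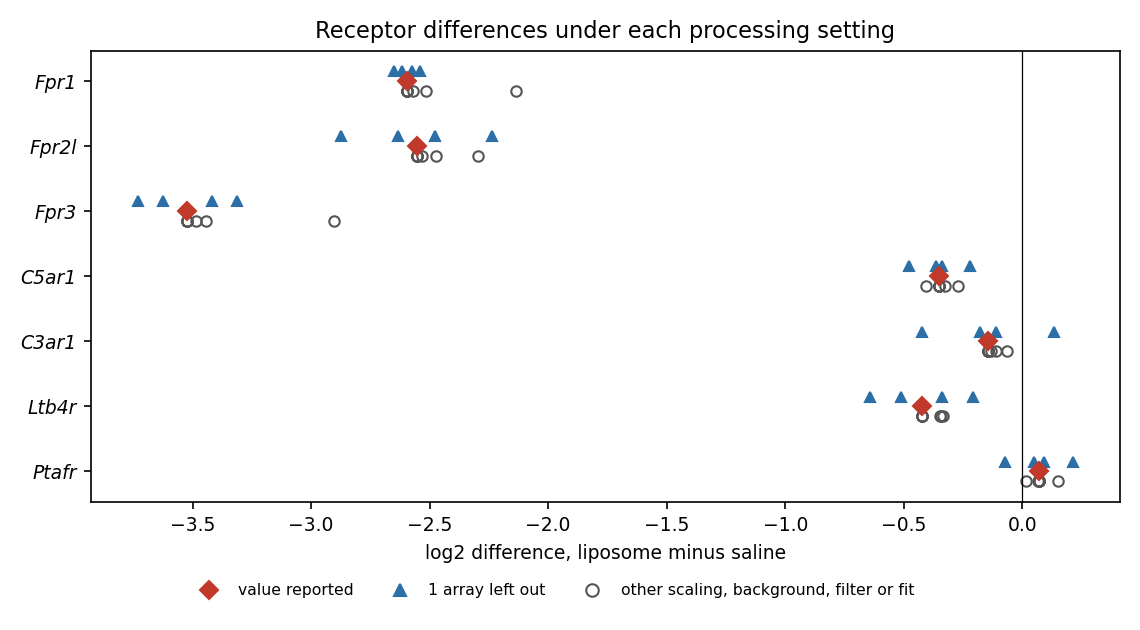
Log2 difference between liposome and saline for the 7 receptor genes under each processing setting: the value reported (red diamonds), 1 array left out (blue triangles), and another scaling, background correction, filter or fit (open circles). No value of Fpr1, Fpr2l or Fpr3 lies above -2.13, and no value of the other 4 genes lies below -0.64.

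On the arrays as a whole, 61.3% to 66.3% of spots were well above background and 0 were saturated. The error that the extraction software estimated for the 7 probes was 10.0% to 13.7% of the intensity. It is not a spread measured between repeat spots. The log2 values of all genes correlated at 0.993 between the liposome arrays, 0.989 between the saline arrays and 0.971 to 0.975 across groups. All 4 arrays lay on 1 slide. With 2 arrays in each group, the smallest p that exact permutation allows is 0.333.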

How the data were processed

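The deposited files hold intensity values: per the file headers and the submitters' processing notes, the authors extracted them with Agilent Feature Extraction 10.7.3.1, which subtracted a fitted background surface within each array and divided out a trend, without scaling between arrays. From these, outlier-flagged spots were dropped, repeat spots were averaged as log2 values and each array's 75th percentile was subtracted. A probe entered the fit if either group had it well above background on its 2 arrays, and the brightest probe stood for a gene. Names came from RefSeq through accessions for 18006 probes and from the files for 8186, and 4175 had none. Differences were fitted with limma 3.58.1 (R 4.3.3), adjusted after Benjamini-Hochberg over 12858 genes at a threshold of 0.05, a script that was tested on simulated data. The title number was not used as a block because the labels do not say what it marks. Promoters came from RefSeq (GRCr8) and were aligned with Biopython 1.88; the planned translation of probes into receptor proteins was not done, and the probe sequences of the other 5 receptors are not reported here. The receptors, the lists and the rule were chosen with earlier results of these data known. All members, list genes that passed (up to 5, by size) with 2 bright others, and the 2 nearest profiles were named. Relatives, neighbours of the locus and markers beyond that rule were named after their values were seen.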

Additional observations from a re-analysis of the deposited data

How the results depend on the processing

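The alternatives were another scaling (median, quantile), normexp background correction, other filters, the mean of a gene's probes, leaving out each array, and the replicate block. Genes past the threshold numbered 621 higher and 522 lower. With no filter on dim probes 0 of 21971 passed in limma (3005 at an unadjusted p under 0.05), and with it 0 receptor genes and 0 list genes. Genes lower numbered 823 with normexp and 988 with the replicate block, list genes that fell 13 and 14, and list genes that rose 5 under either and 5 with median scaling. Without 1 array the ranges were 0 to 352 genes higher, 0 to 147 lower, 0 to 3 receptor genes, 0 to 2 list genes that fell and 0 to 4 that rose. Without liposome array 1 or 2 no gene passed in limma, with 2177 or 2397 at an unadjusted p under 0.05. Higher genes were 54.3% of calls and 65.8% with median scaling. The difference between numbers passed for 24 genes with median scaling, 113 with normexp and 40 when a probe had to be above background on every array, and for 0 receptor genes in each. Same-numbered arrays deviated together with r = 0.355 over genes, from only 2 pairs. Of 18 named list genes, 8 lost a call in 33 cases and 4 gained one in 8, with no reversal; the cause was not tested. With the replicate block Rgs1 (0.67 ± 0.11, adjusted p = 0.0350 in limma), S1pr1 (-0.59 ± 0.12, adjusted p = 0.0487) and P2ry2 (0.95 ± 0.18, adjusted p = 0.0486) passed. With 2 arrays a group and 1 spot a receptor probe, small differences cannot be resolved, and Ltb4r and Fpr3 in liposome lie near background.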
